A study of Rattus norvegicus with 20 samples.

Results

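The genes described here are those of the potassium channels in the nucleus accumbens, the ventral striatal node of the reward circuit, of rats that had self-administered cocaine. The members are the symbols of the count table made of Kcn, further letters and a final number, with 10 or more counts in at least 4 of the 20 libraries. Of 17296 symbols, 90 have such a name and 83 reached the count minimum. Kcnv2 lay just outside it, with 10 or more counts in 2 libraries and at most 14 counts in any. Kcna10, Kcne1, Kcnj1, Kcnk18, Kcnk6 and Kcnmb3 had no library at 10 counts. Kcnj15 lay just inside, with 5 such libraries and 1 to 18 counts per library, followed by Kcnh8 with 7 libraries and Kcna7 with 10. All 83 members were among the 12846 genes tested.

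The rats were male wild-type Sprague-Dawley animals 7 to 9 weeks old, from Envigo, kept 2 to a cage, and every group took cocaine. The groups differed in what they drank at will. They were H2O (5 libraries, the control), Abx (4 libraries, antibiotics that deplete the gut microbiome), SCFA (6 libraries, short-chain fatty acids) and Abx_SCFA (5 libraries, both together). The antibiotics and fatty acids are not named in the labels, no group without cocaine is present here, and cage mates cannot be recognised, so p-values measure the spread between these libraries. The number series in the rats' titles differs between the fatty acid groups and the others, so that series and the fatty acid drink cannot be told apart.

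Potassium channels carry potassium out of or into the cell, which sets the resting potential, ends action potentials and limits repetitive firing. The medium spiny neurons that make up most of the accumbens are known for a strongly negative resting potential held by inward rectifiers and for A-type currents that delay firing. Cortical pyramidal cells, fast-spiking interneurons and glia use other subunits of the same families. The members include 16 voltage-gated pore subunits (Kcna to Kcnd). A further 9 are electrically silent subunits that act only within channels of other subunits (Kcnf, Kcng, Kcns, Kcnv). There are 4 Kcnq subunits, 8 ether-a-go-go subunits (Kcnh) and 7 calcium- or sodium-activated pore subunits (Kcnma, Kcnn, Kcnt). The rest are 14 inward rectifiers (Kcnj), 11 tandem-pore leak channels (Kcnk) and 14 auxiliary subunits (Kcnab, Kcnip, Kcne, Kcnmb).

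The libraries held 17525358 to 25731636 counts, and the members together took 0.34% to 0.44% of them. A level is given in CPM, the count over the scaled library total. It is not divided by gene length, so levels are compared between libraries and not between genes. The limit that a count of 0 allows, 3 counts, corresponded to 0.11 to 0.17 CPM per library. Medium spiny neuron markers, 14 of 14 of them, were present in every library. They summed to 7298 to 9936 CPM in H2O, 6955 to 10070 in Abx, 4249 to 9274 in SCFA and 7691 to 9257 in Abx_SCFA. In SCFA against H2O, 14 of the 14 had a negative log2 fold change, with a median of -0.36. In Abx_SCFA against SCFA 14 of 14 were positive, with a median of 0.39. In both contrasts 0 of them passed the test described below. Markers of cortical excitatory neurons varied far more within a treatment. The 13 such genes in the table summed to 205 to 646 CPM in H2O, 296 to 1087 in Abx, 308.9 to 2213 in SCFA and 420 to 830 in Abx_SCFA, and only Neurod1 was at 0 in any library, of H2O. The mean log2 CPM of these markers, called the cortical score below, was 1.50 to 4.11 in H2O, 3.04 to 4.70 in Abx, 3.19 to 5.80 in SCFA and 3.49 to 4.50 in Abx_SCFA. SCFA libraries 2 and 5 had the highest scores of all, 5.16 and 5.80. The score of 12 myelin genes was 8.89 to 9.43 in H2O, 7.76 to 8.87 in Abx, 7.61 to 9.52 in SCFA and 8.49 to 9.26 in Abx_SCFA. In such bulk tissue, fewer cells of a type and less RNA per cell cannot be told apart.

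No potassium channel gene passed the test in any comparison of the drinks. The edgeR quasi-likelihood test with Benjamini-Hochberg adjustment over all 12846 genes called 0 of 83 members for any difference among the 4 groups, for each of 5 pairwise contrasts, and for the interaction of antibiotics and fatty acids. The smallest adjusted p of a member was 0.247, in SCFA against H2O. The same test called 0% of all genes in each of these 7 comparisons. At an unadjusted p below 0.05 stood 10 members for any difference among groups, against 8.29% of all genes tested, which is 12.0% of the members. DESeq2 and limma-voom also called 0 members in each of the 7, with 19 and 7 members at an unadjusted p below 0.05 for any difference. Over all genes limma-voom called 0 in each of the 7. DESeq2 called 5 genes for any difference, 10 in SCFA against H2O and 3 in Abx_SCFA against SCFA. It called 1 in Abx against H2O, 1 in Abx_SCFA against H2O, and 0 in Abx_SCFA against Abx and for the interaction. With 1 library left out in turn, the edgeR count of 10 ran from 5 without SCFA library 2 to 25 without SCFA library 4. Here and below, such a member count without a share of all genes beside it is not a result about the members in particular.

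By unadjusted counts in the model of all 20 libraries, SCFA had the most members set apart from H2O. In SCFA against H2O, 29 of 83 members (34.9%) had an unadjusted p below 0.05, 21 of them higher and 8 lower, beside 13.8% of all genes, 8.2% higher and 5.58% lower. DESeq2 gave 31 and limma-voom 22. In Abx against H2O the count was 10 of 83 (12.0%, beside 8.79% of all genes), 7 higher and 3 lower, where all genes stood at 3.26% higher and 5.53% lower. Through the shared estimate of spread it was 20 without SCFA library 5. In Abx_SCFA against H2O it was 2 of 83 (beside 5.56% of all genes), 1 higher (beside 2.09%) and 1 lower (beside 3.46%), and 13 without H2O library 5. These contrasts share the H2O libraries, and differences between their counts were not tested. The SCFA count was 15 without SCFA library 5. Without SCFA libraries 2 and 5 it was 5 (6.02%, beside 4.97% of all genes), and the Abx count was then 24 (28.9%, beside 12.5%). The order of the groups by member count thus changed. It also changed with the compared groups alone, for which shares of all genes are not given here. With the cortical score in the model the SCFA count was 2 (2.41%, beside 3.05% of all genes). In SCFA the share of all genes fell as well, and the cause was not tested.

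The median log2 fold change over the members was 0.14 in Abx against H2O, with 55 positive and 28 negative (47.7% of all genes positive). It was 0.13 in SCFA against H2O, with 48 positive and 35 negative (48.9% of all genes positive), and 0.08 in Abx_SCFA against H2O, with 53 and 30 (47.6%). The medians over all genes tested were -0.01, -0.00 and -0.01. For the interaction the members' median was -0.12, with 30 positive and 53 negative (51.8% of all genes positive), beside 0.01 for all genes. In Abx_SCFA against Abx it was -0.08, with 28 positive and 55 negative (49.9%), and against SCFA -0.05, with 34 and 49 (45.5%). With the cortical score in the model 5 of these 6 medians changed sign, to -0.06 for Abx, -0.12 for SCFA and -0.12 for Abx_SCFA against H2O, 0.07 for the interaction and 0.02 for Abx_SCFA against SCFA, as the plot of medians shows. In Abx_SCFA against Abx the median was then -0.05. With the myelin score in the model the median for Abx against H2O was 0.02. Without SCFA libraries 2 and 5 the median for SCFA against H2O was 0.02 and that for Abx_SCFA against SCFA was 0.08.

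**Figure D1:**
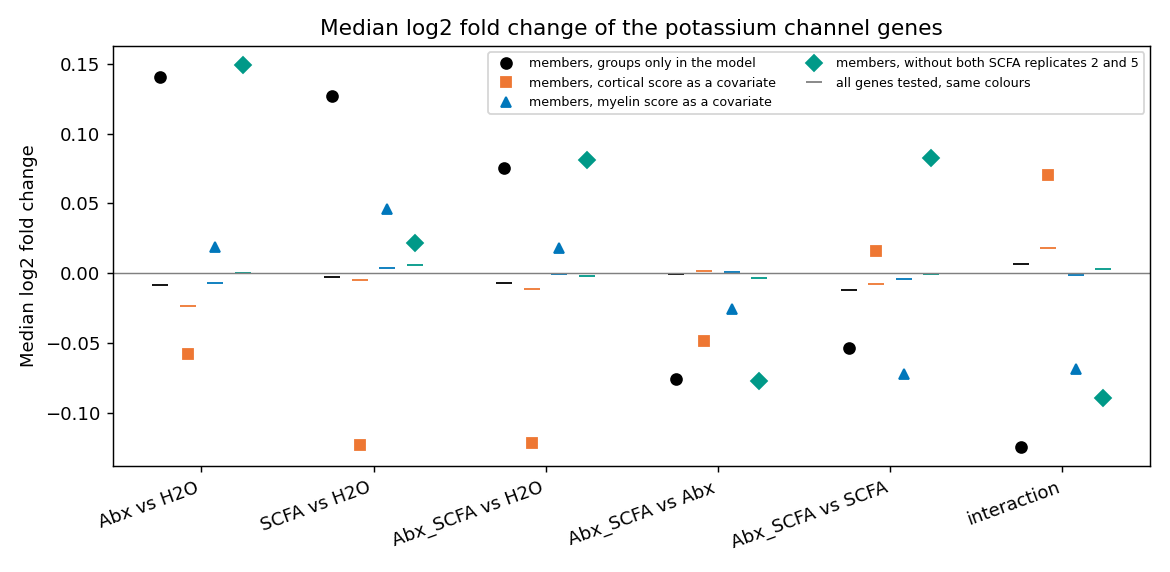
Median log2 fold change (vertical axis) of the 83 potassium channel genes and of all genes tested (horizontal dashes) in each contrast, for the model of groups alone, with the cortical or the myelin score added, and without SCFA libraries 2 and 5. The medians near 0.14, 0.13 and 0.08 against H2O lie below 0 with the cortical score in the model.

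Among the pore subunits and their silent partners, Kcns2 had the smallest p of all members in SCFA against H2O. Kcns2 is an electrically silent subunit that alters the gating of other voltage-gated subunits. Its level was 20.1, 23.0, 22.5, 21.0 and 22.1 CPM in H2O, 19.1, 18.2, 23.5 and 20.5 in Abx, 15.8 to 20.1 with a median of 17.2 in SCFA, and 19.1, 22.1, 20.5, 22.3 and 21.2 in Abx_SCFA. The 6 SCFA libraries lay below all H2O libraries, by a margin at the closest pair too small to show at 3 digits. Kcns2 was the 1 member (1.20%) whose SCFA and H2O libraries did not overlap, beside 0.537% of all genes in either direction. The log2 fold change was -0.32 ± 0.075 (SE, adjusted p = 0.247) in SCFA against H2O, 0.27 ± 0.075 (adjusted p = 0.732) in Abx_SCFA against SCFA, and 0.37 ± 0.11 (adjusted p = 0.622) for the interaction. It ranked 6 of 12846 genes by p in the first of these. Within groups, its slope on the cortical score was -0.00 ± 0.037 log2 per unit (adjusted p = 0.972). Its difference in SCFA was -0.27 without SCFA libraries 2 and 5 and -0.31 with the cortical score in the model, with adjusted p of 0.864 and 0.983.

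**Figure D2:**
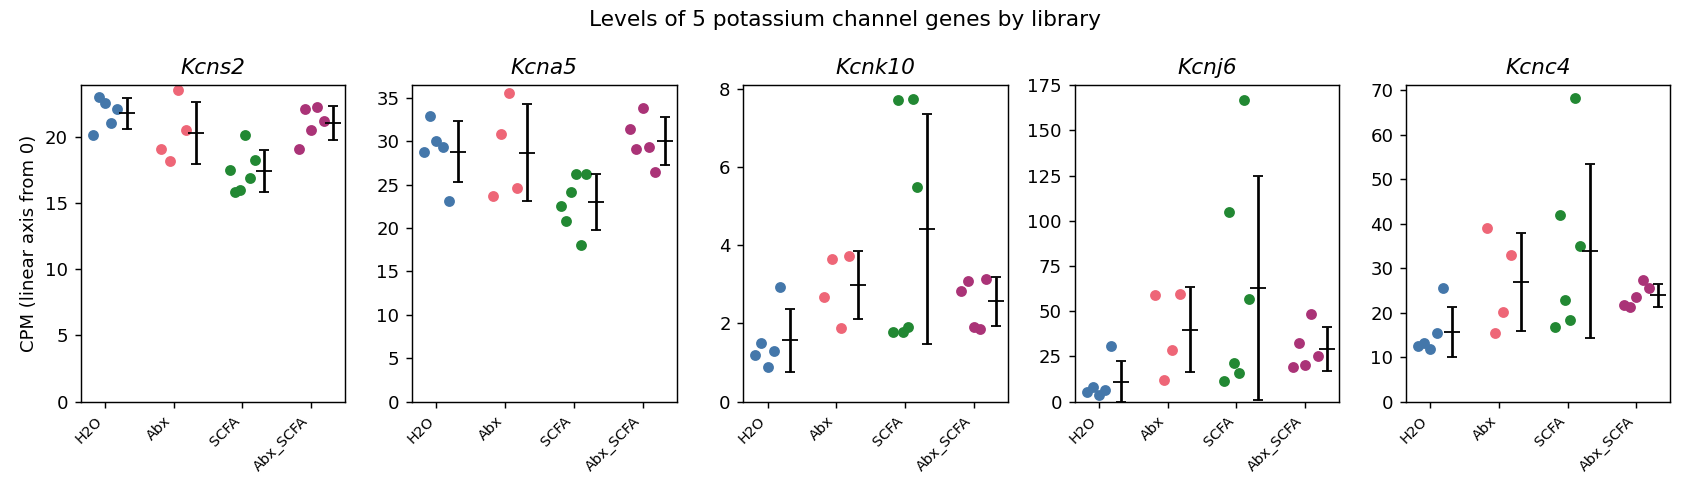
CPM (linear axis from 0) of 5 potassium channel genes in each of the 20 libraries, by group, with bars for the mean and SD, the lower end of the Kcnj6 bar in H2O stopping at 0. Kcns2 lies lowest in SCFA at 15.8 to 20.1 CPM, while Kcnj6 spreads from 3.91 to 167 CPM over all libraries.

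Kcna5 and Kcna4 also lay lower in SCFA without passing the test. Kcna5 encodes a delayed rectifier pore subunit. It read 28.8, 32.9, 30.0, 29.3 and 23.1 CPM in H2O, 23.6, 30.8, 35.6 and 24.6 in Abx, 18 to 26.2 with a median of 23.4 in SCFA, and 31.4, 29.1, 33.8, 29.3 and 26.4 in Abx_SCFA. All Abx_SCFA libraries lay above all SCFA libraries, at 0.38 ± 0.11 log2 (SE, adjusted p = 0.732). Kcna5 was the 1 member (1.20%) whose groups did not overlap in that contrast, beside 0.56% of all genes in either direction. Kcna4, the A-type pore subunit that inactivates rapidly, read 64.7, 79.6, 71.9, 59.1 and 51.2 CPM in H2O and 36.4 to 63.2 with a median of 47.8 in SCFA. The groups overlapped, and the difference was -0.44 ± 0.15 log2 (adjusted p = 0.250).

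Among other voltage-gated subunits chosen for their role, most levels lay close together. Kcnd2, the main A-type pore subunit of the somatodendritic membrane, averaged 203 ± 32 CPM (SD, n = 5) in H2O, 197 ± 26.1 (n = 4) in Abx, 170 ± 33.1 (n = 6) in SCFA and 193 ± 24.3 (n = 5) in Abx_SCFA. Kcna1, a low-threshold axonal subunit, stayed between 42.4 and 60.3 CPM over all 20 libraries, and its largest pairwise difference was -0.07 ± 0.090 log2. Kcna2, which joins Kcna1 in axonal channels, ranged from 14.0 to 33.7 CPM, both in SCFA. Kcnd3, another A-type subunit, averaged 66.7 ± 6.09, 71.4 ± 10.2, 78.2 ± 23.0 and 64.2 ± 3.72 CPM in H2O, Abx, SCFA and Abx_SCFA. The wide spread in SCFA came from its libraries 2, 5 and 6, at 97.2, 108 and 89.9 CPM. Within groups, the slope of Kcnd3 on the cortical score was called upward, at 0.18 log2 per unit (adjusted p = 0.0447).

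In Abx, 4 members had all libraries above all H2O libraries, among them Kcnh7, Kcnk1 and Kcnc1, a subunit of the fast-repolarising channels that let neurons fire at high rates. This share, 4.82% of the members, stood beside 2.46% of all genes whose groups did not overlap in either direction. Kcnc1 read 53.1, 51.1, 48.4, 51.6 and 44.4 CPM in H2O and 54, 53.9, 60.0 and 59.3 in Abx, a difference of 0.19 ± 0.13 log2 (SE, adjusted p = 0.669). The ether-a-go-go subunit Kcnh7, which overlaps another gene of the table, read 4.42 to 5.35 CPM in H2O and 5.54 to 9.15 in Abx, and the leak channel Kcnk1 read 38.0 to 44.2 and 45.1 to 53.3 CPM. Kcnc1, Kcnh7 and Kcnk1 had called negative slopes on the myelin score, given below, and all 4 Abx libraries lay below all H2O libraries in that score. With that score in the model, 1 member (1.20%, beside 2.77% of all genes) had an unadjusted p below 0.05. Without the score it was 10 (12.0%, beside 8.79%). The share of all genes fell as well, and the part of myelin in these differences was not tested.

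Further members that stood at the extremes in Abx against H2O were a leak channel, an auxiliary subunit and a G protein-gated rectifier. Kcnk9, an acid-sensitive leak channel, read 4.29, 4.93, 2.92, 5.68 and 8.18 CPM in H2O and 12.1, 5.44, 10.03 and 13.3 in Abx, 0.97 ± 0.34 log2 (SE, adjusted p = 0.563). Kcne4, an auxiliary subunit that inhibits several voltage-gated channels, read 1.15, 1.11, 0.827, 1.04 and 1.61 CPM in H2O and 0.908, 0.662, 0.456 and 0.753 in Abx, -0.70 ± 0.24 (adjusted p = 0.563). In both genes the groups overlapped. Kcnj5, a G protein-gated inward rectifier subunit, read 3.62 to 5.10 CPM in H2O, 2.37 to 3.83 in Abx and 3.53 to 4.80 in Abx_SCFA. Its differences were -0.44 ± 0.17 log2 in Abx against H2O and 0.39 ± 0.17 in Abx_SCFA against Abx, with adjusted p of 0.563 and 0.999.

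The Kcnq subunits showed no difference that passed the test. Over the 4 genes, log2 fold changes ran from -0.08 to 0.45 in Abx against H2O and from -0.27 to 0.48 in Abx_SCFA against H2O. Kcnq3, whose channels hold back repetitive firing, read 82.0, 101, 105, 96.3 and 91.9 CPM in H2O and 69.8, 79.2, 81.5, 90.4 and 74.8 in Abx_SCFA. That difference, -0.27 ± 0.097 log2 (SE, adjusted p = 0.815), was the smallest p on the negative side in Abx_SCFA against H2O, and the groups overlapped. Against Abx alone it was -0.19 ± 0.10 (adjusted p = 0.999). None of the 4 Kcnq genes had a called slope on the cortical or the myelin score.

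Of the channels gated by calcium or sodium, Kcnn4 had the largest interaction of the drinks, which did not pass the test. It encodes the intermediate-conductance calcium-activated channel known mainly from blood cells and microglia. It read 1.88, 2.21, 1.87, 1.49 and 2.03 CPM in H2O, 1.34, 0.946, 2.11 and 1.47 in Abx, 0.514 to 1.83 with a median of 1.04 in SCFA, and 2.70, 1.92, 1.83, 1.47 and 1.53 in Abx_SCFA. Its interaction, 1.13 ± 0.40 log2 (SE, adjusted p = 0.622), was the largest positive value among the members. Kcnma1, the large-conductance calcium-activated pore, averaged 65.2 ± 5.34, 66.1 ± 5.39, 64.5 ± 15.3 and 59.0 ± 4.16 CPM in H2O, Abx, SCFA and Abx_SCFA. Kcnn3, a small-conductance channel of pacemaking and afterhyperpolarisation, averaged 24.0 ± 3.48, 25.2 ± 4.06, 21.3 ± 3.36 and 23.8 ± 1.24 CPM. Kcnn2, its relative, read 22.1 to 24.6 CPM in Abx and 18.7 to 21.6 in Abx_SCFA. It was the 1 member (1.20%) whose Abx_SCFA and Abx libraries did not overlap, the same share as the 1.2% of all genes. The difference was -0.16 ± 0.12 log2 (adjusted p = 0.999).

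The remaining differences with Abx_SCFA were small or in genes of low count. In Abx_SCFA against Abx, 3 of 83 members (3.61%, beside 3.19% of all genes) had an unadjusted p below 0.05, 2 higher (beside 1.85%) and 1 lower (beside 1.34%). They were Kcnj5, the vascular rectifier Kcnj8 and the silent subunit Kcng3, the last at -0.41 ± 0.18 log2 (SE, adjusted p = 0.999), and the count ran from 0 without Abx_SCFA library 5 to 5 without Abx library 1, Abx library 2 or SCFA library 5. In Abx_SCFA against SCFA the count was 9 of 83 (10.8%, beside 6.78% of all genes), 6 higher (beside 2.72%) and 3 lower (beside 4.06%), and it ran from 3 without SCFA library 2 to 25 without SCFA library 4. Kcnk16, a leak channel that overlaps another gene of the table, was on the lower side at -1.44 ± 0.65 log2, from 0.128 to 2.16 CPM in SCFA and 0.196 to 0.809 in Abx_SCFA. Kcnb2, a delayed rectifier, was at -0.58 ± 0.26, from 2.87 to 10.2 CPM in SCFA and 3.15 to 4.45 in Abx_SCFA. The ether-a-go-go subunit Kcnh5 was at -0.59 ± 0.29 in Abx_SCFA against H2O, from 3.21 to 5.45 CPM and 2.37 to 3.49. The leak channel Kcnk15 was at 0.36 ± 0.15 there, with 12.0, 8.96, 9.92, 9.10 and 12.0 CPM in H2O and 13.2, 12.5, 12.3, 13.9 and 14.8 in Abx_SCFA. With Kcnj9, a G protein-gated subunit, it was 1 of 2 members (2.41%) whose Abx_SCFA libraries all lay above H2O. No member lay wholly below, and 1.42% of all genes did not overlap in either direction. Kcnk15 and Kcnj9 both overlap another gene of the table, and without strand information such reads cannot be told apart.

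Kcnj8 and its partner Abcc9 lay lowest in Abx. They form the ATP-sensitive channel of vascular smooth muscle and pericytes. Kcnj8 read 9.83, 8.96, 9.37, 8.20 and 8.74 CPM in H2O, 5.88, 7.81, 6.04 and 8.72 in Abx, 6.33 to 11.7 with a median of 7.98 in SCFA, and 8.09, 7.84, 9.16, 9.78 and 10.9 in Abx_SCFA. Its difference in Abx_SCFA against Abx was 0.36 ± 0.17 log2 (SE), and that of Abcc9 was 0.36 ± 0.13, with an adjusted p of 0.999 for both. All 8 endothelial and mural markers had positive differences in the same contrast, with a median of 0.27, and their part in the values of Kcnj8 was not tested.

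The members that read highest in SCFA were led by Kcnj6, a G protein-gated inward rectifier subunit that couples dopamine, opioid and GABA-B receptors to inhibition. It read 5.44, 8.05, 3.91, 6.31 and 31.0 CPM in H2O, 58.9, 12.1, 28.7 and 59.7 in Abx, 11.6 to 167 with a median of 39.1 in SCFA, and 19.0, 32.4, 20.2, 48.7 and 25.5 in Abx_SCFA. Every group overlapped H2O through H2O library 5. The ratio of the highest to the lowest library, 42.6, exceeded any difference between groups. The log2 fold change was 2.52 ± 0.72 (SE, adjusted p = 0.247) in SCFA against H2O, 1.86 ± 0.76 (adjusted p = 0.563) in Abx against H2O and 1.40 ± 0.73 (adjusted p = 0.815) in Abx_SCFA against H2O. The interaction was -2.97 ± 1.01 (adjusted p = 0.622). With the cortical score in the model the SCFA difference was -0.16 (adjusted p = 0.983).

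Kcnk10 and Kcnc4 had the same order of group means, with SCFA above Abx, Abx_SCFA and H2O. Kcnk10, a leak channel opened by stretch and lipids, read 1.20, 1.51, 0.882, 1.31 and 2.93 CPM in H2O, 2.68, 3.64, 1.88 and 3.72 in Abx, 1.77 to 7.75 with a median of 3.71 in SCFA and 2.84, 3.09, 1.92, 1.86 and 3.14 in Abx_SCFA. It differed by 1.48 ± 0.42 log2 (SE, adjusted p = 0.247) in SCFA against H2O. Kcnc4, a fast A-type member of the Kcnc group, read 12.6, 13.2, 11.8, 15.4 and 25.5 CPM in H2O, 39.1, 15.3, 20.2 and 32.9 in Abx, 16.8 to 68.3 with a median of 28.9 in SCFA and 21.7, 21.2, 23.5, 27.4 and 25.6 in Abx_SCFA. Its difference in SCFA was 1.11 ± 0.33 (adjusted p = 0.247). In both genes H2O library 5 was the highest of its group, and it was also the H2O library with the highest cortical score.

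Within the groups, 34 of the 83 members changed with the cortical score. The model held the 4 groups and the score, and tested the slope in log2 CPM per unit of score over all 20 libraries. A slope was called in 28 members upward and 6 downward, 41.0% of them, beside 15% of all genes, 10.1% upward and 4.94% downward. The median slope was 0.09 over the members and -0.00 over all genes tested. Of the 21 members higher in SCFA at an unadjusted p below 0.05, 20 (95.2%) had a called upward slope, which is 71.4% of the 28. Of the 8 lower ones, 3 (37.5%) had a called downward slope. Both overlaps join lists from the same libraries, so they are not independent. The like share over all genes higher in SCFA was not computed. The overlaps are therefore not results about the members in particular. SCFA libraries 2 and 5 bore on the count of 34 called slopes. It was 20 (24.1%, beside 8.88% of all genes) without SCFA library 5. Without both it was 12, all 12 upward, 14.5% of the members beside 4.37% of all genes.

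Kcnj6 had the steepest slope of the members, and its p ranked 1 of 12846 genes. It rose by 1.37 ± 0.053 log2 (SE, adjusted p = 8.2e-13) per unit of the score. The slope stayed between 1.35 and 1.43 when each library was left out in turn. It was 1.30 (adjusted p = 4.84e-11, rank 3) without SCFA libraries 2 and 5. Its partner in the same channel, Kcnj3, rose by 0.78 ± 0.097 (adjusted p = 1.53e-05) and read 3.64 to 7.94 CPM in H2O, 5.25 to 15.6 in Abx, 5.36 to 37.8 in SCFA and 6.88 to 12.8 in Abx_SCFA. Of the 14 inward rectifiers, 3 rose with the score and 1 fell, the third riser being Kcnj9.

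**Figure D3:**
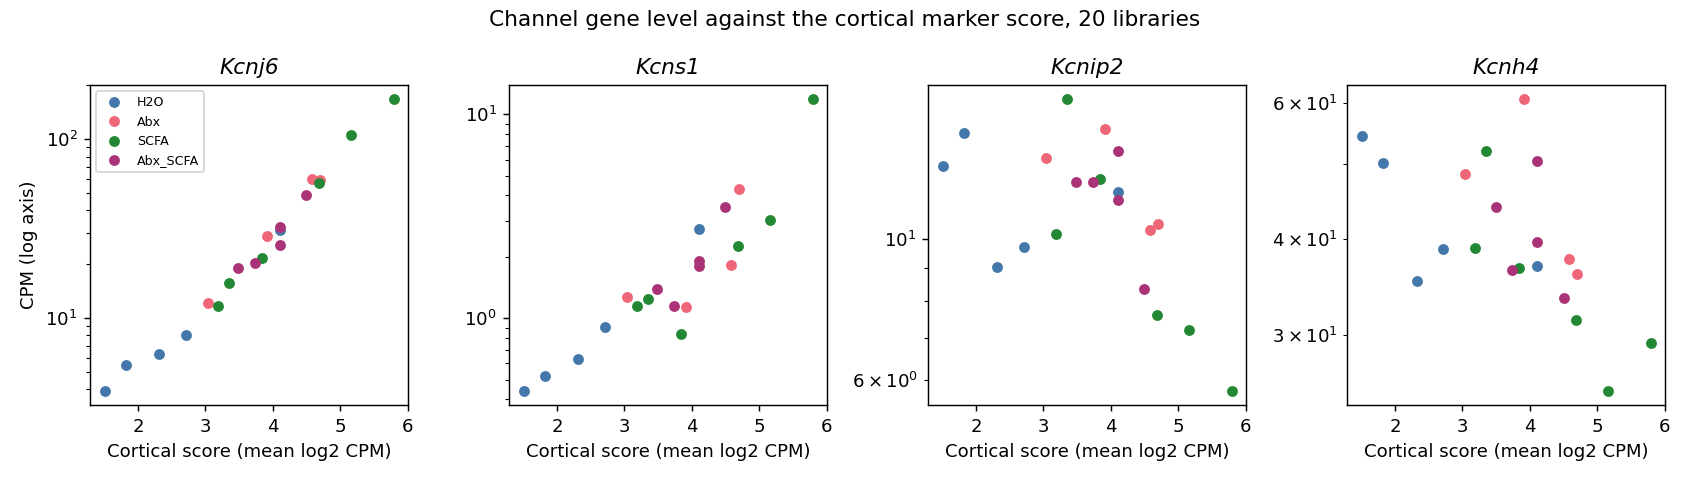
CPM (log axis) of Kcnj6, Kcns1, Kcnip2 and Kcnh4 against the cortical marker score (mean log2 CPM of 13 genes) in the 20 libraries, coloured by group. Kcnj6 climbs from 3.91 CPM at a score of 1.50 to 167 CPM at 5.80, across all 4 groups, while Kcnip2 and Kcnh4 are lowest in SCFA libraries of high score.

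The silent subunits and the leak channels held the highest shares of risers. Among the silent subunits, 6 of 9 rose and none fell. Kcns1, a modifier of other voltage-gated subunits, rose by 1.18 ± 0.13 log2 (SE, adjusted p = 1.46e-06) per unit. It read 0.523, 0.906, 0.441, 0.631 and 2.74 CPM in H2O, 4.30, 1.28, 1.14 and 1.82 in Abx, 0.839 to 11.8 with a median of 1.75 in SCFA and 1.40, 1.81, 1.15, 3.52 and 1.91 in Abx_SCFA. Among the 11 leak channels, 7 rose and none fell. Kcnk12, of the halothane-inhibited leak channels, rose by 0.84 ± 0.084 (adjusted p = 5.67e-07), from 1.67 to 4.30 CPM in H2O and from 2.01 to 13.8 in SCFA. Kcnk9 rose by 0.56 ± 0.063 (adjusted p = 2.34e-06).

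The other families had fewer. Of the 16 voltage-gated pore subunits 5 rose and 1 fell, of the 14 auxiliary subunits 4 rose and 2 fell, of the 7 calcium- or sodium-activated pores 2 rose and 1 fell, of the 8 ether-a-go-go subunits 1 rose and 1 fell, and of the 4 Kcnq genes none did either. Kcnc4 rose by 0.63 ± 0.053 log2 (SE, adjusted p = 6.48e-08). Kcnip3, a calcium-binding protein that joins Kcnd channels and also acts in the nucleus, rose by 0.43 ± 0.045 (adjusted p = 1.12e-06). It read 18.3 to 30.6 CPM in H2O and 23.9 to 66.1 in SCFA, and its interaction by drink was -0.97 ± 0.35 (adjusted p = 0.622). Kcnmb4, the neuronal auxiliary subunit of Kcnma1, rose by 0.41 ± 0.042 (adjusted p = 9.1e-07), while Kcnma1 itself had a slope of 0.08 ± 0.051 (adjusted p = 0.328).

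The 6 members that fell with the score are Kcnip2, Kcnt1, Kcnh4, Kcnj2, Kcnab1 and Kcna5. Kcnip2 binds Kcnd2 and speeds its surface delivery. It fell by 0.30 log2 per unit (SE 0.079, adjusted p = 0.0136) and read 9.06 to 14.7 CPM in H2O and 5.78 to 16.6 in SCFA. Kcnt1, the sodium-activated channel, fell by 0.26 (SE 0.081, adjusted p = 0.0336), Kcnh4, an ether-a-go-go subunit, by 0.26 (SE 0.060, adjusted p = 0.00652) and Kcnj2, a strong inward rectifier, by 0.22 (SE 0.055, adjusted p = 0.0102). Kcnab1, a beta subunit of Kcna channels, read 341 to 501 CPM in H2O and 237 to 432 in SCFA, -0.37 ± 0.13 log2 (adjusted p = 0.258) by drink. None of the 6 was called without SCFA libraries 2 and 5. In the same fit, 14 of 14 medium spiny neuron markers had negative slopes, 8 of them called.

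**Figure D4:**
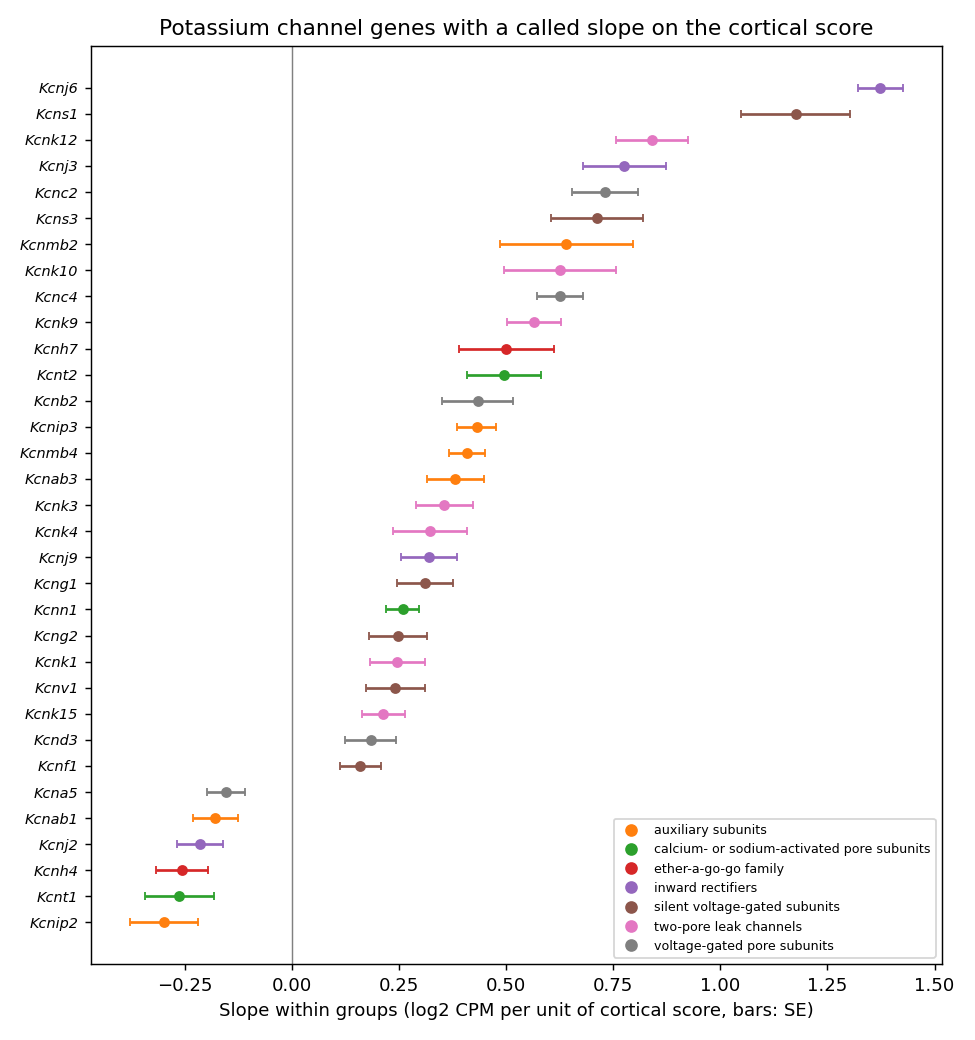
Slope within groups on the cortical score (horizontal axis, log2 CPM per unit of score, bars SE) of potassium channel genes with a called slope, 1 of the 28 upward ones not drawn. The upward slopes end with Kcns1 at 1.18 and Kcnj6 at 1.37, and the 6 downward slopes lie between -0.30 and -0.15.

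To set the sequence around the start sites beside these slopes, the promoter windows of 2 risers and 2 fallers are shown, each running from 250 bases before to 50 bases after the RefSeq start in GRCr8. They are in lower case, 5′ to 3′ on the gene's strand, with the GC box GGGCGG in capitals on either strand, where CCGCCC is the same box on the other strand. All 4 genes lie on the minus strand, and Kcnj6 has 1 box, Kcns1 and Kcnip2 have 2 each and Kcnh4 has none.
Kcnj6, chr11:47778299-47778598: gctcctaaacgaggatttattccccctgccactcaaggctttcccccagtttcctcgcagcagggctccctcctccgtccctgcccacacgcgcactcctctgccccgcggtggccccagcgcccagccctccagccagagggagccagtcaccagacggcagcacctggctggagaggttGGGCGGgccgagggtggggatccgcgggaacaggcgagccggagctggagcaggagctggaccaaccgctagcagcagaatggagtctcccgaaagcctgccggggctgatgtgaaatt
Kcns1, chr3:173262297-173262596: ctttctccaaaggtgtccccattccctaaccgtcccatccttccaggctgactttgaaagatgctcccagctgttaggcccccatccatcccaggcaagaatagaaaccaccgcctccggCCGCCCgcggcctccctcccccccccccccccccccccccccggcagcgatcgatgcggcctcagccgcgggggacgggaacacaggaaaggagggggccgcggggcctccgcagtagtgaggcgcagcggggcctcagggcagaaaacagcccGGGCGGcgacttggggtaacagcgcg
Kcnip2, chr1:254613849-254614148: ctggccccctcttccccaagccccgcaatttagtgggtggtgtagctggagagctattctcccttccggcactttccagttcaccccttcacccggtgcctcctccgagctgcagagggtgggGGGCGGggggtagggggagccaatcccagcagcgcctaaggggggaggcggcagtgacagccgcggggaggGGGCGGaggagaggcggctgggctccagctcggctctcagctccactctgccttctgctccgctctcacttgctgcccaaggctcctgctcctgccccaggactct
Kcnh4, chr10:86188427-86188726: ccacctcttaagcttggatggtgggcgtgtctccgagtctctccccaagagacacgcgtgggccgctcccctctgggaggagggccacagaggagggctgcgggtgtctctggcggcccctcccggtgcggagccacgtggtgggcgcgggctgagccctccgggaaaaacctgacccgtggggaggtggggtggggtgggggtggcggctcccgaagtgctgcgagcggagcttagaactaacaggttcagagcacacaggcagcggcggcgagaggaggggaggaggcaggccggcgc

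RefSeq's table held a window for 56 of the 83 members. GGGCGG stood in 31 of these 56 (55.4%), beside 33.1% of all 33469 windows of the same length, and in 11 of 16 risers and 3 of 6 fallers with a window. CAGATG, an E-box that neurogenic basic helix-loop-helix factors can bind, stood in 4 of 56 (7.14%) beside 16.6% of all windows, and in 2 of 16 risers and none of 6 fallers. The cAMP response element TGACGTCA stood in 0 of 56 beside 1.83% of all windows. All motifs were searched on both strands, and none contains another. The matches describe letters in these windows only.

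The slopes on the myelin score involved 17 members, mostly in the opposite direction. A slope was called upward in 2 and downward in 15, 20.5% of the members, beside 8.98% of all genes, 5.91% upward and 3.07% downward. The risers were Kcna6 and Kcnj10. Kcna6, an axonal voltage-gated subunit, rose by 0.35 ± 0.080 log2 (SE, adjusted p = 0.00819) per unit of the score and read 137 to 203 CPM in H2O, 112 to 169 in Abx, 151 to 210 in SCFA and 129 to 174 in Abx_SCFA. Kcnj10, the glial rectifier that takes up potassium, rose by 0.20 ± 0.054 (adjusted p = 0.0236) and read 73.8 to 89.4, 63.8 to 88.9, 75.8 to 94.3 and 75.5 to 90.2 CPM. Kcnj10 differed by at most 0.06 log2 in size in any pairwise contrast of drinks. Kcnj16, its partner in glia, read 3.20 to 11.5 CPM in H2O and had no called slope.

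Among the 15 that fell with the myelin score, the steepest were Kcnh7, by 0.79 log2 (SE 0.19, adjusted p = 0.0111), Kcnh5, by 0.60 (SE 0.17, adjusted p = 0.0363), Kcnk3, an acid-sensitive leak channel, by 0.51 (SE 0.13, adjusted p = 0.0196), and Kcnk1, by 0.45 (SE 0.099, adjusted p = 0.00568). Of the 8 ether-a-go-go subunits 4 fell, and of the 7 calcium- or sodium-activated pores 3 did. SCFA library 5, which had the lowest myelin score (7.61) together with the highest cortical score (5.80), bore on most of this set. Without it 2 members were called, Kcna6 and Kcnj10 (2.41%, beside 3.95% of all genes). Without SCFA libraries 2 and 5 there were 4 (4.82%, beside 4.23% of all genes), of which 2 were among the 17. The count was 9 (10.8%, beside 5.70% of all genes) without SCFA library 1 and 11 (13.3%, beside 7.08%) without SCFA library 3. It was 10 (12.0%, beside 7.68%) with both scores in the model.

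**Figure D5:**
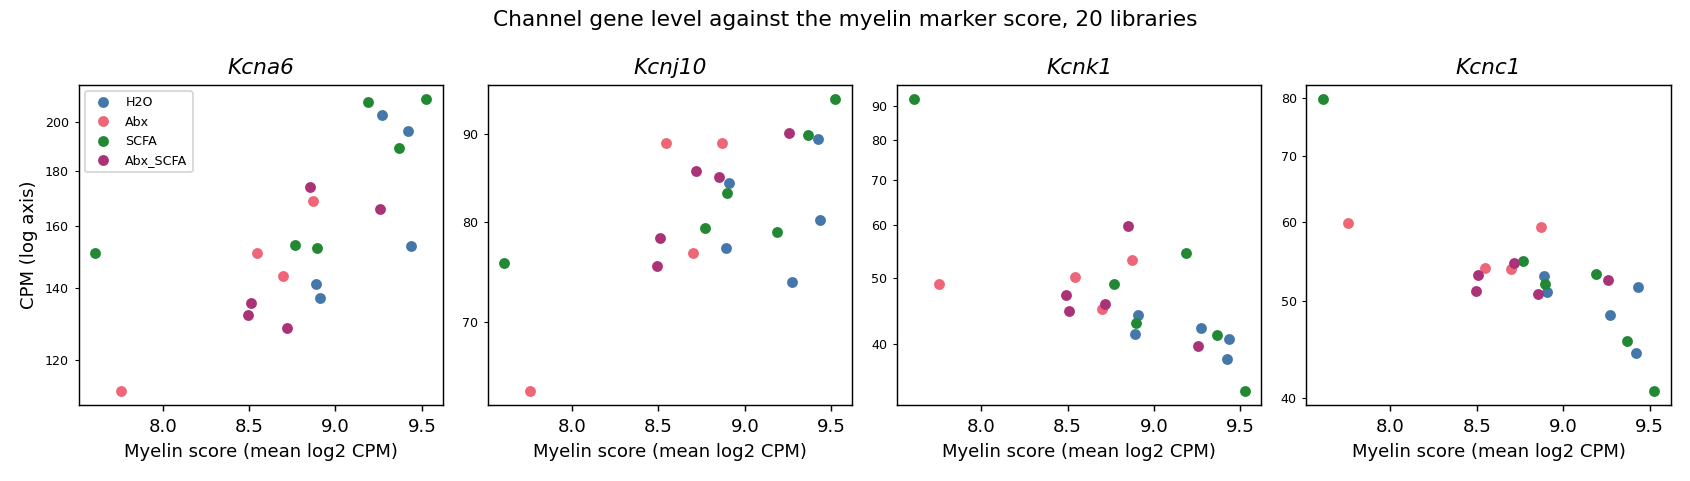
CPM (log axis) of Kcna6, Kcnj10, Kcnk1 and Kcnc1 against the myelin marker score (mean log2 CPM of 12 genes) in the 20 libraries, coloured by group. Kcna6 lies higher where the score is higher, and the SCFA library at a score of 7.61 stands apart at the top for Kcnk1, with 91.9 CPM, and for Kcnc1, with 79.7 CPM.

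Other members chosen for their role showed no called difference by drink. Kcnj4, an inward rectifier of spiny neurons, averaged 148 ± 21.7 CPM (SD, n = 5) in H2O, 147 ± 24.6 (n = 4) in Abx, 128 ± 14.6 (n = 6) in SCFA and 148 ± 12.6 (n = 5) in Abx_SCFA. Kcnj2 averaged 22.6 ± 3.17, 20.5 ± 2.25, 17.6 ± 5.15 and 18.4 ± 1.02 CPM in the same order. Kcnk2, a leak channel opened by stretch and lipids, averaged 162 ± 22.5, 158 ± 37.4, 135 ± 27.5 and 170 ± 17.1 CPM, and Kcnt1 averaged 187 ± 43.6, 228 ± 56.2, 172 ± 55.2 and 193 ± 40.7 CPM. In each of these 4 genes the SCFA mean was the lowest of the groups, and the groups overlapped. Medium spiny neuron markers were lower in SCFA against H2O as well, and their part in these values was not tested. Kcnip1, an auxiliary subunit of Kcnd channels whose gene model overlaps that of Kcnmb1, averaged 26.8 ± 4.10, 30.7 ± 5.43, 26.2 ± 7.96 and 28.6 ± 6.24 CPM.

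The interaction of the drinks asked whether the difference made by the fatty acids was another with antibiotics than without. At an unadjusted p below 0.05 stood 21 of 83 members (25.3%, beside 7.85% of all genes), 4 positive (beside 2.84%) and 17 negative (beside 5.01%), and none passed the adjusted test. The 4 positive were Kcns2, Kcna5, Kcnj5 and Kcnn4. The 17 negative included Kcnj6, Kcnk10, Kcnj3 and Kcnc4, all with called upward slopes on the cortical score. With that score in the model 4 members (4.82%, beside 3.64% of all genes) had an unadjusted p below 0.05. The count was 13 without SCFA library 5, and 6 (7.23%, beside 3.89% of all genes) without SCFA libraries 2 and 5.

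Partners that are not named Kcn were taken from a list of 27, of which 24 could be tested. None passed the test in a comparison of drinks. At an unadjusted p below 0.05 stood 2 in Abx against H2O (8.33%, beside 8.79% of all genes), 3 in SCFA against H2O (12.5%, beside 13.8%), 1 in Abx_SCFA against H2O (4.17%, beside 5.56%), 1 against Abx (4.17%, beside 3.19%), 0 against SCFA (beside 6.78%) and 2 for the interaction (8.33%, beside 7.85%). These shares are near those of all genes or below them. Of the 24, 3 rose with the cortical score and 2 fell (20.8%, beside 15% of all genes), and 1 rose with the myelin score and 2 fell (12.5%, beside 8.98%). Amigo1 and Hcn4 were among the risers with the cortical score. Dpp6, which speeds Kcnd channels, and the scaffold Dlg1 fell with it, by 0.11 log2 (SE 0.033, adjusted p = 0.0371) and 0.10 (SE 0.028, adjusted p = 0.0177). Cntn2, an adhesion molecule that gathers Kcna channels beside the nodes of myelinated axons, rose with the myelin score by 0.70 log2 (adjusted p = 1.25e-07), and Lgi1 fell with it.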

How the data were processed

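The authors deposited 1 table of whole-number counts per gene symbol for 20 libraries, made on Rnor_6.0 (per the submitters' processing notes, which name STAR 2.4.0, FastQC 0.11.6 and limma). Per the labels' protocols, RNA came from an RNeasy kit and cDNA of polyA RNA from a SMARTer kit. Not given in the sources used here: trimming, strand, annotation and counting tool. Of 83 members, 9 overlap another symbol of the table in RefSeq's gene models, and 0 pairs had identical counts.

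Groups were taken from the labelled treatment. With R 4.3.3, edgeR 4.0.16 (TMM scaling, filterByExpr, robust quasi-likelihood fit) was applied to the counts in 1 model of 4 groups with 16 residual degrees of freedom, and p-values were adjusted by Benjamini-Hochberg over 12846 genes, called below 0.05. CPM is edgeR's count over the scaled library total. Slopes used the group terms and a marker score, and the lists hold no Kcn gene. Alternatives were DESeq2 1.42.0, limma-voom 3.58.1, other filters and scaling, covariates and leaving out libraries. The scripts were tested on simulated data. Members and lists were chosen with earlier results of these data known. Genes named are the 2 positive and 2 negative members of smallest p per contrast, the 5 of smallest p for any difference, the 4 steepest slopes per score and direction, and a list by role. Kcnj9 and the other members named beside groups that do not overlap were chosen after their values were seen. Results of some named genes are not reported here. Promoter windows are RefSeq's, in GRCr8, not the build of the counts.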

Additional observations from a re-analysis of the deposited data

Results flagged for a closer look

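In 44 named genes and 4 groups, 176 sets of libraries were examined for a highest or lowest library far from its own group, and 14 were set apart, all of them a highest library. For independent sets of normal values the rule would set apart about 1 in 20. These genes share the same libraries, and some were chosen by slopes on which single libraries bear. The 14 can therefore not be set against that rate.

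SCFA library 5 stood apart in 8 genes. It read 79.7 CPM for the fast voltage-gated subunit Kcnc1 (40.7 to 54.9 in the other SCFA libraries), 7.12 for the ether-a-go-go subunit Kcnh5 (2.25 to 3.54) and 20.1 for its relative Kcnh7 (3.40 to 9.47). Among the leak channels it read 91.9 for Kcnk1 (34.1 to 54.6), 13.8 for Kcnk12 (2.01 to 5.97) and 17.2 for Kcnk9 (4.98 to 9.11). It also read 93.8 for the calcium-activated pore Kcnma1 (52.5 to 67.8) and 11.8 for the silent subunit Kcns1 (0.839 to 3.04). This library had the highest cortical score (5.80) and the lowest myelin score (7.61) of all 20.

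H2O library 5 stood apart in 4 genes, at 25.5 CPM for Kcnc4 (11.8 to 15.4 in the other H2O libraries), 31.0 for Kcnj6 (3.91 to 8.05), 54.9 for Kcnmb4 (28.2 to 35.1) and 2.74 for Kcns1 (0.441 to 0.906). Its cortical score of 4.11 was the highest in H2O. In Abx_SCFA, library 4 stood apart at 481 CPM for the beta subunit Kcnab1 (373 to 402.4) and 66.1 for Kcnma1 (56.5 to 59.3). The part of the marker scores in these values was not tested.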

How the results depend on the processing

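In all 7 comparisons of drinks, 0 members were called with DESeq2, limma-voom, size-factor scaling, no filter or a stricter filter, either marker score as a term, or libraries left out. The same held with the compared groups alone in the 5 pairwise contrasts and with the rat number series as a term, which was run for Abx against H2O only. With the cortical score in the model the members' median log2 fold change was -0.057 for Abx, -0.12 for SCFA and -0.12 for Abx_SCFA against H2O and 0.070 for the interaction, and Kcnj6 was -0.16 (adjusted p = 0.983) in SCFA and -0.23 (adjusted p = 0.726) in Abx_SCFA against H2O. The causes were not tested.

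Members with a called slope on the cortical score numbered 20 (beside 8.88% of all genes) to 37 (beside 21.7%) with 1 library left out. Without SCFA libraries 2 and 5 they numbered 12 (beside 4.37%). On the myelin score they numbered 2 (beside 3.95% of all genes) to 24 (beside 9.90%) with 1 library left out. They numbered 4 (beside 4.23%) without SCFA libraries 2 and 5 and 10 (beside 7.68%) with both scores. Kcnt1 lost its call under 13 alternatives.

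Counts at an unadjusted p below 0.05 moved further. The shares of all genes moved as well, and those at hand stand in brackets. Counts without brackets cannot be read as results about the members in particular. With the compared groups alone they were 23 for Abx against H2O, 18 for SCFA, 18 for Abx_SCFA and 6 for Abx_SCFA against Abx. With the myelin score they were 1 (2.77%), 19 (11.9%), 4 (4.48%) and 0 (3.09%), and 8 (4.98%) for the interaction. With the cortical score they were 15 (7.84%) for Abx_SCFA against H2O and 5 (3.87%) against Abx. Without SCFA libraries 2 and 5 they were 24 (12.5%), 5 (4.97%), 9 (7.80%) and 5 (4.05%), and 3 (3.67%) for Abx_SCFA against SCFA. There they were also 27 for the cortical slope in place of 46 and 21 for the myelin slope in place of 39. The rat number series as a term gave 22 (9.80%) for Abx against H2O.

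No paired analysis was possible because the replicate numbers only name libraries in order and the labels pair no rats across groups. At these depths, members under 1 CPM rest on few counts per library.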
